A study of Sus scrofa with 9 samples.

Results

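The genes described here are the integrin and laminin genes of the domestic pig, chosen by symbol alone: every gene whose symbol starts with ITGA, with ITGB and a digit, or with LAMA, LAMB or LAMC and a digit. The rule found 39 genes among the 18933 of the table that compares Obese-MSCs with Lean-MSCs, and the same 39 among the 18992 of the table that compares vitamin-C-treated with untreated Obese-MSCs. Of these, 25 encode integrin chains (17 alpha and 8 beta), 12 encode laminin chains, and ITGB1BP1 and ITGB1BP2 encode proteins that bind the tail of the integrin beta 1 chain. Both group means were above 3 normalized counts for 38 of the 39 in each table, the exception being ITGB2. ITGAX, the remaining RefSeq gene that fits the rule, was not analysed here.

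The measurement was 5-hydroxymethylcytosine (5hmC), the oxidized form of methylcytosine made by TET enzymes, captured with an antibody from the DNA of mesenchymal stem/stromal cells (MSCs) and counted by sequencing (hMeDIP-seq). The MSCs were grown from the subcutaneous abdominal fat of female domestic pigs. The animals were 3 months old at the start and had been kept for 16 weeks on standard chow, giving the Lean group, or on food rich in fat and fructose, giving the Obese group. Setting Obese-MSCs against Lean-MSCs asks where the diet had shifted the mark, and setting Obese-MSCs with against those without vitamin-C, a cofactor of TET enzymes, asks where the vitamin shifted it.

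Each group had 3 libraries: Lean replicates 7, 8 and 9, untreated Obese replicates 1, 2 and 3, and Obese replicates 4, 5 and 6, which had been co-incubated with 50 µg/mL vitamin-C for 48 h in culture. All cells were used at passages 3 to 4, and the growth medium of every group already held some vitamin-C, so the untreated cells were not free of it. The diet was given to the animal and the vitamin to cells in a dish, and obesity came together with dyslipidemia. The labels do not say whether a treated and an untreated library came from the same pig. The untreated Obese libraries serve in both comparisons.

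Values are normalized counts per gene, made by the authors from reads over exons. They summed to between 494566 and 522269 per library in the first table and to between 547242 and 593846 in the second. The tables were normalized separately: for the integrin and laminin genes the same untreated libraries read 1.10 to 1.16 times as high in the second table (median 1.11), so a value is compared only within its table. Exon lengths were not used, so levels are not ranked between genes. The MSC surface markers NT5E, THY1, ENG and CD44 carried 5hmC in every library, but so did PTPRC, PECAM1 and ADIPOQ, which mark leukocytes, endothelium and adipocytes, so the presence of the mark over exons does not set these cell types apart in these files. CD14, a monocyte marker, stood at 0 in all 3 Lean libraries and at 0.650 to 4.49 in Obese-MSCs, where its mean of 2.02 was under 3. PTPRC went the other way with overlap, with means of 46.9 in Obese-MSCs and 59.3 in Lean-MSCs (log2 ratio −0.34). The summed level of 4 MSC markers was 285.4 to 317.8 in Obese-MSCs and 232.2 to 298.9 in Lean-MSCs, and that of 9 markers of other cells was 341.2 to 374.9 and 304.8 to 357.5. In the second table these sums were 307.9 to 337.6 in treated and 314.2 to 359.1 in untreated cells for the MSC markers, and 305.1 to 398.4 and 386.2 to 416.5 for the others. No marker met the study's criteria in either comparison, and the part of cell composition in the results was not tested.

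Integrins are the receptors by which cells hold on to the matrix around them. Each is a pair of 1 alpha and 1 beta chain, and the alpha chain largely sets which ligand is bound: collagens, laminins, proteins with an arginine-glycine-aspartate (RGD) motif such as fibronectin, or partners on leukocytes. Inside the cell, talins and kindlins bind the beta tail and link it to actin and to focal adhesion kinases. Laminins are cross-shaped trimers of an alpha, a beta and a gamma chain that form the sheet of basement membranes, and mature fat cells are each surrounded by such a membrane. 5hmC within gene bodies is generally associated with active genes, but the values here are levels of the mark and not of RNA.

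In Obese-MSCs against Lean-MSCs, no integrin or laminin gene met the study's criteria, which were an unadjusted p of 0.05 or less in a two-sided equal-variance test together with a mean ratio no smaller than 1.4 or no larger than 0.7. Over all genes 4.5% met them, 2.07% as high and 2.43% as low. The largest ratios were those of ITGA2B (1.78), LAMB2 (1.49), ITGA3 (1.44) and ITGA1 (1.41), and the lowest was that of ITGB8 (0.74). Libraries of the groups did not overlap at 9 of the 39 genes, or 23.1%, against 11.8% of all genes. At 6 of these Obese-MSCs were higher (ITGA2B, ITGA3, ITGA8, ITGB2, ITGB7 and LAMB1; 5.7% of all genes were higher without overlap), and at 3 they were lower (ITGB6, ITGB8 and LAMA5; 6.06% of all genes). ITGB2 lay near the floor, with 0.0689 in its lowest Obese library, replicate 3, against 0 in Lean-MSCs. No gene at all stood at 0 in Obese replicate 3, while 226 to 870 genes did in each Lean library. Its place among the 9 is therefore weak. At ITGA2B, ITGB7 and ITGB8 the closest libraries of the groups were nearly equal.

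With limma on log2(value + 1), 0 of 38 genes passed a Benjamini-Hochberg adjusted p of 0.05, as did 0 of all 15146 genes tested. At an unadjusted p of 0.05 or less stood ITGA1 and ITGA8, 2 of 38 or 5.26%, against 6.81% of all genes. The smallest adjusted p of an integrin or laminin gene was 0.679. The 95% interval of the difference reached from 0.31 (LAMB1) to 0.90 (ITGA7) on either side of the estimate on the log2 scale, with a median of 0.54. These intervals are not adjusted for the number of genes tested.

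The median log2 ratio of Obese to Lean means was 0.09 over 38 genes, with 27 above and 11 below a ratio of 1, and 0.0064 over the 15177 genes with both means above 3. The ratios ran from −0.43 to 0.84 on the log2 scale, and 25 of 38 lay between 0.8 and 1.25 on the linear scale. Summed over the 39 genes, the level was 3105, 3041 and 2884 in Obese-MSCs and 2863, 2806 and 2622 in Lean-MSCs, or 0.595%, 0.598% and 0.572% of the library total against 0.564%, 0.567% and 0.528%. The lowest Obese library therefore stood above the highest Lean library in the sum, by a narrow margin (2884 against 2863). ITGA1, ITGA8 and LAMB1 made up 71.8% of the difference of 246 between the summed means. After quantile normalization their log2 ratios fell from 0.50, 0.37 and 0.23 to 0.40, 0.29 and 0.12. Whether the sums still separate on that scale was not tested. The ratio kept its side of 1 with any single library left out at 21 genes, of which 15 were higher and 6 lower in Obese-MSCs.

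**Figure D1:**
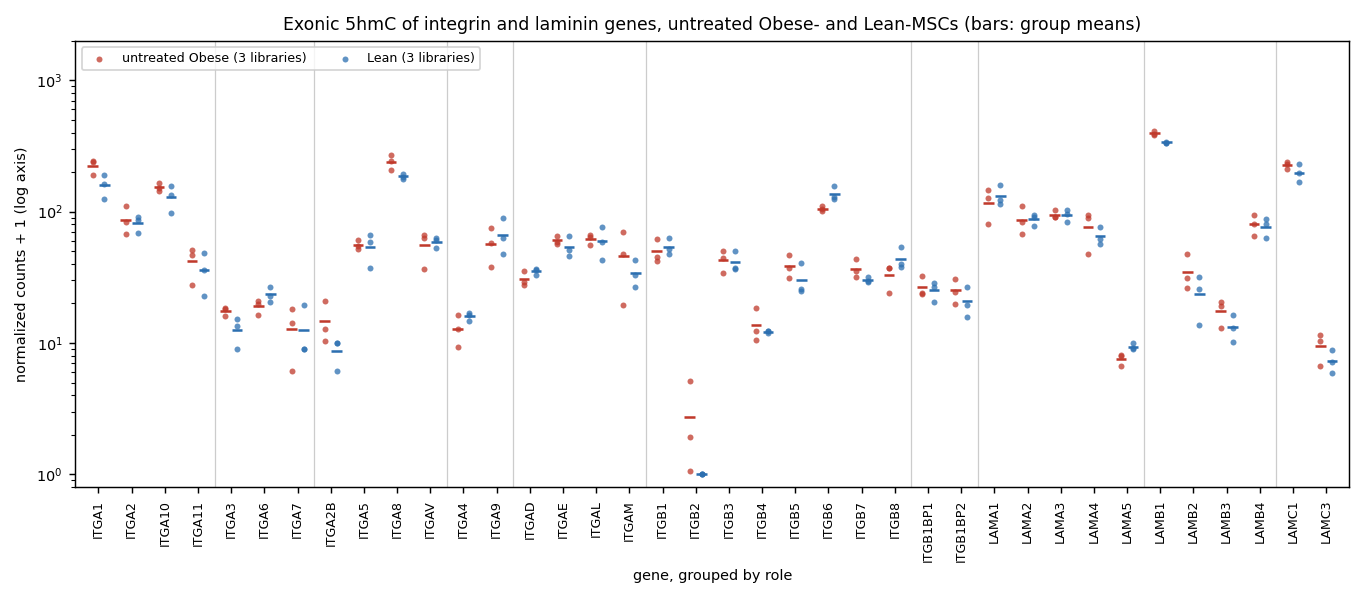
Normalized 5hmC counts + 1 (log axis) of 38 integrin and laminin genes, grouped by role along the horizontal axis, where each point is 1 of the 3 untreated Obese (red) or 3 Lean (blue) libraries and each bar is a group mean. ITGA8 and LAMB1 separate without overlap (lowest Obese 205.6 and 381, highest Lean 192.1 and 338), while ITGB2 lies near the floor with its Lean libraries at 0.

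The collagen-binding alpha chains, receptors for fibrillar and sheet collagens, all had ratios above 1, with a median log2 ratio of 0.24 over 4 genes. ITGA1, the alpha 1 chain, which lies at chr16:32130265-32309917 (Sscrofa11.1), read 242.8, 237.1 and 187.5 in Obese-MSCs and 124.7, 187.7 and 160.2 in Lean-MSCs. The groups met at a single point, Obese replicate 3 lying just under Lean replicate 8. Its means were 222 ± 30.4 and 158 ± 31.6 (SD, n = 3 each), and its limma log2 difference was 0.51 (SE 0.19, 95% interval 0.10 to 0.91, unadjusted p = 0.0174, adjusted p = 0.679). ITGA10, a cartilage collagen receptor, read 143.6, 163.1 and 149.5 against 132.2, 155.9 and 96.6, with overlap and a log2 ratio of 0.25. ITGA11, a fibroblast receptor for fibrillar collagen, read 26.6, 50.4 and 45.7 against 35.0, 47.7 and 21.6 (log2 ratio 0.23). ITGA2, the alpha 2 chain and neighbour of ITGA1, read 109.5, 66.2 and 82.5 against 68.0, 89.4 and 85.2, with a log2 ratio of 0.09. At these last 3 genes the groups overlapped.

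Among the laminin-binding alpha chains ITGA3 was higher and ITGA6 lower. ITGA3, the alpha 3 chain of epithelial and stromal laminin receptors (chr12:26234769-26269327), read 17.1, 15.1 and 17.6 in Obese-MSCs against 12.4, 7.93 and 14.4 in Lean-MSCs, without overlap. Its log2 ratio was 0.52 and stayed between 0.31 and 0.71 with any library left out (two-sided exact permutation test, p = 0.1, the smallest that 20 arrangements allow; limma adjusted p = 0.815). ITGA6, the alpha 6 chain, found on many stem cells, read 15.4, 19.9 and 18.8 against 25.9, 21.8 and 19.5. Only Obese replicate 2 passed the lowest Lean one, and the log2 ratio was −0.31 (limma adjusted p = 0.89). ITGA7, the muscle laminin receptor, varied most within groups, with 13.3, 17.2 and 5.07 against 8.07, 7.93 and 18.4 and a log2 ratio of 0.05.

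The RGD-binding alpha chains include the gene with the largest ratio of the 38, at low counts. ITGA2B, the platelet alpha IIb chain (chr12:18860739-18877381), read 19.9, 9.40 and 11.9 in Obese-MSCs and 8.99, 8.94 and 5.16 in Lean-MSCs. The gap between the closest libraries was under 1 count, and the log2 ratio of 0.84 was 0.47 to 1.05 with a library left out (limma log2 difference 0.73, SE 0.38, adjusted p = 0.768). ITGA8, the alpha 8 chain of mesenchymal cells and smooth muscle, which binds nephronectin (chr10:46132887-46303659), read 205.6, 242.7 and 268.1 against 192.1, 177.7 and 183.8. All Obese libraries lay above all Lean ones, and the Lean libraries were close together, with means of 239 ± 31.4 and 185 ± 7.23 (SD, n = 3 each). The ratio of 1.29 is below the study's ratio limit of 1.4, and the limma log2 difference was 0.36 (SE 0.17, unadjusted p = 0.0499, adjusted p = 0.733). ITGA5, the fibronectin receptor of MSCs, read 53.6, 59.8 and 50.7 against 65.3, 57.6 and 36.0, with the Obese libraries inside the Lean range. ITGAV, the alpha V chain of vitronectin receptors, read 62.5, 65.5 and 35.8 against 59.9, 51.6 and 61.6. Their log2 ratios were 0.05 and −0.08, and the 95% interval for ITGA5 ran from −0.45 to 0.62, which leaves room for differences of either sign.

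Both members of the alpha 4 and alpha 9 pair, receptors for VCAM1, fibronectin and tenascin, had ratios below 1. ITGA4 read 8.27, 15.2 and 11.8 in Obese-MSCs and 13.6, 15.9 and 15.4 in Lean-MSCs (log2 ratio −0.35), and ITGA9 read 56.8, 74.1 and 37.0 against 87.7, 62.5 and 46.3 (log2 ratio −0.23). The groups overlapped at both.

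The leukocyte alpha chains also carried the mark. ITGAM, the alpha chain of the complement receptor of myeloid cells, read 69.5, 46.5 and 18.4 in Obese-MSCs against 41.6, 25.8 and 31.8 in Lean-MSCs, so that the Obese libraries enclosed the Lean ones (log2 ratio 0.44). ITGAD, its neighbour on chromosome 3, read 34.4, 26.5 and 28.3 against 35.0, 35.7 and 31.9 (log2 ratio −0.20). Its first Obese library lay within the Lean range. ITGAL, the alpha chain of LFA-1, read 55.0, 65.5 and 63.5 against 42.2, 57.6 and 75.9 (log2 ratio 0.07). ITGAE, which binds E-cadherin on intraepithelial T cells, read 58.2, 64.5 and 55.4 against 49.8, 64.6 and 45.2 (log2 ratio 0.16). None of the 4 separated the groups.

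The integrin beta chains differed in direction among themselves, with a median log2 ratio of 0.05 over 7 genes. ITGB1, the beta 1 partner of most matrix-binding alpha chains, read 44.1, 60.8 and 41.4 in Obese-MSCs and 50.9, 62.6 and 46.3 in Lean-MSCs. Its log2 ratio was −0.13, with a limma 95% interval of −0.65 to 0.38. ITGB6 and ITGB8, partners of alpha V in receptors that activate latent TGF-beta, were the beta chains lower without overlap. ITGB6 (chr15:67041516-67175409) read 101, 109 and 104 against 157, 129 and 123, a log2 ratio of −0.38 (−0.45 to −0.27 with a library left out; limma adjusted p = 0.768). ITGB8 (chr9:89342245-89450701) read 22.9, 36.1 and 36.3 against 52.9, 36.7 and 39.0, a log2 ratio of −0.43 (limma adjusted p = 0.815). In ITGB8 Obese replicates 2 and 3 were within 1 count of the lowest Lean library, so the separation is narrow there and wide in ITGB6.

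Of the other beta chains, ITGB5, the vitronectin receptor partner of alpha V, read 45.5, 30.3 and 36.5 in Obese-MSCs against 23.9, 39.7 and 24.7 in Lean-MSCs (log2 ratio 0.35), with overlap. ITGB4, which joins alpha 6 in hemidesmosomes, read 17.5, 11.3 and 9.62 against 11.3, 10.9 and 11.3 (log2 ratio 0.20), with 1 high Obese library. ITGB3, the platelet and osteoclast beta chain, read 43.6, 33.1 and 49.2 against 36.3, 35.7 and 49.2 (log2 ratio 0.05). ITGB7, the beta chain of gut-homing lymphocytes, read 34.1, 42.7 and 30.81 against 28.3, 30.78 and 28.8, where the lowest Obese and the highest Lean library were nearly equal (log2 ratio 0.29, limma adjusted p = 0.889). ITGB2, the beta chain shared by leukocyte integrins (chr13:207514281-207544108), read 4.14, 0.925 and 0.0689 in Obese-MSCs and stood at 0 in all 3 Lean libraries. Its mean stayed under 3 and no fold is given. Of the integrin-binding proteins, ITGB1BP1 read 23.2, 22.7 and 31.5 against 19.4, 27.8 and 25.7 (log2 ratio 0.09), and ITGB1BP2 read 29.9, 18.9 and 23.6 against 25.8, 14.9 and 18.5 (log2 ratio 0.29), both with overlap.

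The laminin alpha chains, which carry the cell-binding domains, had a median log2 ratio of −0.01 over 5 genes, 2 above and 3 below a ratio of 1. LAMA5, the alpha 5 chain of most adult basement membranes (chr17:61698370-61747795), read 7.02, 5.67 and 7.04 in Obese-MSCs and 7.95, 8.94 and 8.22 in Lean-MSCs. It was lower without overlap at low counts, with a log2 ratio of −0.35 (two-sided exact permutation test, p = 0.1; limma adjusted p = 0.916). LAMA4, the alpha 4 chain of vessel and fat tissue laminins, read 93.0, 46.3 and 88.0 against 75.5, 55.6 and 60.6 (log2 ratio 0.25), the Obese libraries enclosing the Lean ones. LAMA1, the embryonic alpha 1 chain, read 144, 125 and 79.5 against 159, 121 and 113 (log2 ratio −0.17). LAMA2, the muscle and nerve chain, and LAMA3, the skin chain, had log2 ratios of −0.01 and 0.01, and that of LAMA3 changed sign with quantile normalization.

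The 4 laminin beta chains all had ratios above 1 (median log2 ratio 0.34). LAMB1, the beta 1 chain of most laminins (chr9:107670120-107747242), read 389, 411 and 381 in Obese-MSCs and 338, 335 and 335 in Lean-MSCs. The Lean libraries were nearly equal (336 ± 1.91, SD, n = 3) and all Obese libraries lay above them (394 ± 15.2, SD, n = 3). The ratio was only 1.17, a log2 ratio of 0.23 that stayed between 0.20 and 0.25 with a library left out and was 0.12 after quantile normalization (limma adjusted p = 0.824). LAMB2, the beta 2 chain of kidney and synaptic basement membrane (chr13:31738282-31750623), read 46.5, 30.3 and 25.1 against 12.8, 24.8 and 30.8, with overlap and the second largest ratio, 1.49 (two-sided exact permutation test, p = 0.4). LAMB3, the skin partner of LAMA3, read 19.6, 18.03 and 12.02 against 9.18, 11.9 and 15.4 (log2 ratio 0.45). LAMB4, the neighbour of LAMB1, read 64.1, 94.0 and 78.9 against 79.1, 61.6 and 86.2, with overlap and a log2 ratio of 0.06.

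Of the laminin gamma chains, LAMC1, the gamma 1 chain of nearly all laminins, read 239, 211 and 231 in Obese-MSCs against 228, 196 and 168 in Lean-MSCs (log2 ratio 0.20). LAMC3, the gamma 3 chain, read 9.39, 5.63 and 10.5 against 7.84, 4.96 and 6.17 (log2 ratio 0.43). The groups overlapped at both.

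**Figure D2:**
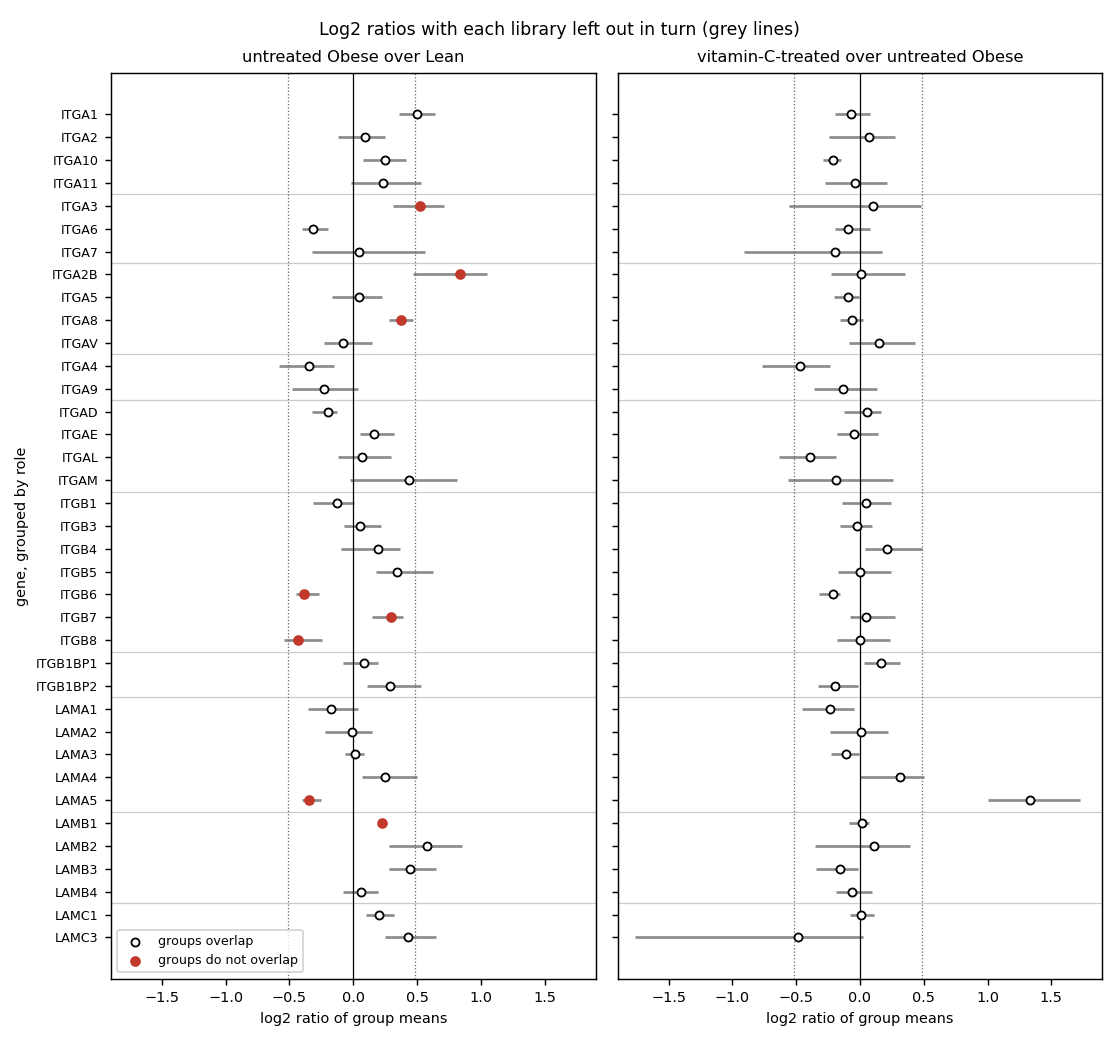
Log2 ratio of group means (horizontal axis) for 37 genes with both means above 3, ordered by role, with grey lines for the range when any single library is left out, filled points for groups that do not overlap and dotted lines at ratios of 0.7 and 1.4. The Obese over Lean ratios run from −0.43 (ITGB8) to 0.84 (ITGA2B), and in the vitamin-C comparison LAMA5 lies at 1.33, followed by LAMA4 at 0.31.

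In vitamin-C-treated against untreated Obese-MSCs, no integrin or laminin gene met the study's criteria, while 1.92% of all genes did, 1.11% as high and 0.806% as low. The groups overlapped at all 39 genes, against 5.91% of all genes without overlap. The libraries were compared here without pairing, which the labels do not give, so overlap says little about change within an animal. limma passed 0 of 38 genes and 0 of all 15194 at an adjusted p of 0.05, and at an unadjusted p of 0.05 or less stood LAMA5 alone, 1 of 38, against 0.974% of all genes. The median log2 ratio of treated to untreated means was −0.03 over 38 genes, 17 above and 21 below a ratio of 1, and 34 of 38 ratios lay between 0.8 and 1.25. LAMA5 was the only gene at a ratio of 1.4 or more, and none was at 0.7 or less. The median half-width of the 95% interval was 0.61 on the log2 scale, from 0.36 (LAMB1) to 1.28 (LAMC3).

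LAMA5 read 7.06, 22.3 and 26.2 in treated cells and 7.79, 6.46 and 7.75 in untreated cells of the second table. Treated replicate 4 lay among the untreated libraries, and the other treated libraries were far above them. The means were 18.5 ± 10.1 and 7.33 ± 0.755 (SD, n = 3 each), a ratio of 2.52 and a log2 ratio of 1.33, which was 1.00 to 1.72 with a library left out. The limma log2 difference was 1.05 (SE 0.44, 95% interval 0.12 to 1.98, unadjusted p = 0.0297, adjusted p = 1), with p = 0.3 in a two-sided exact permutation test. By ratio LAMA5 ranked 12th of the 15644 genes with both means above 3. Of the 8 other such genes within 200 kb of it, 5 had ratios above 1, and their log2 ratios ran from −0.12 to 0.44 with a median of 0.11. Without treated replicate 4, the treated library that lay among the untreated ones, LAMA5 met the study's criteria. The share of all genes called with that library left out is not given here.

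The other laminin chains differed in sign among themselves. LAMC3 read 1.02, 4.57 and 14.7 in treated cells against 10.4, 6.51 and 11.5 in untreated cells, a log2 ratio of −0.49 that spanned −1.76 to 0.02 with a library left out. Treated replicate 6 lay above every untreated one. LAMA4 read 145, 75.8 and 93.0 against 103, 52.7 and 96.8 (log2 ratio 0.31), and LAMA1 read 139, 113 and 78.5 against 160, 142 and 87.5 (log2 ratio −0.24). LAMB1 read 405, 501 and 422 against 432, 464 and 420 (log2 ratio 0.01). LAMC1 read 287, 260 and 217 against 265, 239 and 254 (log2 ratio 0.01). At each of these genes the groups overlapped. LAMB2 read 24.2, 35.1 and 63.0 against 51.3, 34.4 and 27.7 (log2 ratio 0.11), and LAMB3 read 13.1, 18.6 and 17.9 against 21.7, 20.4 and 13.3 (log2 ratio −0.16).

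Among the integrin chains the largest log2 ratios below 0 were those of ITGA4 and ITGAL. ITGA4 read 13.1, 9.25 and 6.15 in treated cells against 9.35, 17.1 and 13.0 in untreated cells (log2 ratio −0.47). ITGAL read 36.2, 51.8 and 68.3 against 61.2, 74.0 and 69.9 (log2 ratio −0.39), and only treated replicate 6 passed an untreated one. ITGA10 read 162, 144 and 133 against 160, 184 and 164 (log2 ratio −0.21). Above 0, ITGB4 read 11.07, 19.5 and 18.9 against 19.2, 12.9 and 10.7 (log2 ratio 0.21), and ITGAV read 79.5, 84.4 and 38.2 against 69.2, 73.9 and 39.5 (log2 ratio 0.15). ITGB1, the common beta partner, read 54.3, 69.6 and 44.6 against 49.1, 68.5 and 45.6. Its log2 ratio was 0.04, with a limma 95% interval of −0.53 to 0.62. ITGA7 read 7.05, 20.6 and 7.02 against 14.7, 19.2 and 5.73 (log2 ratio −0.19), again with wide scatter in both groups. ITGB2 read 0.00215, 1.86 and 2.74 against 4.47, 1.10 and 0.115, under 3 counts on average in either group.

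Several further integrin genes had smaller log2 ratios and overlapping groups. Of the matrix-binding alpha chains, ITGA5 read 50.3, 65.8 and 55.5 in treated cells against 59.6, 67.5 and 55.9 in untreated cells (log2 ratio −0.09), and ITGA6 read 21.1, 21.3 and 14.2 against 17.2, 22.5 and 20.7 (log2 ratio −0.09). ITGA2 read 140, 86.0 and 75.9 against 121, 75.2 and 90.8 (log2 ratio 0.07), and ITGA9 read 61.4, 73.3 and 36.4 against 63.1, 83.5 and 40.8 (log2 ratio −0.13). At ITGA2 and ITGA9 the libraries of each group differed by more than the group means did. The leukocyte chain ITGAD read 32.2, 28.6 and 42.2 against 38.1, 30.1 and 31.2 (log2 ratio 0.05). ITGB1BP1 read 29.2, 29.6 and 37.7 against 25.84, 25.79 and 34.6 (log2 ratio 0.16), and ITGB1BP2 read 22.1, 26.0 and 22.3 against 33.0, 21.5 and 26.0 (log2 ratio −0.19).

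**Figure D3:**
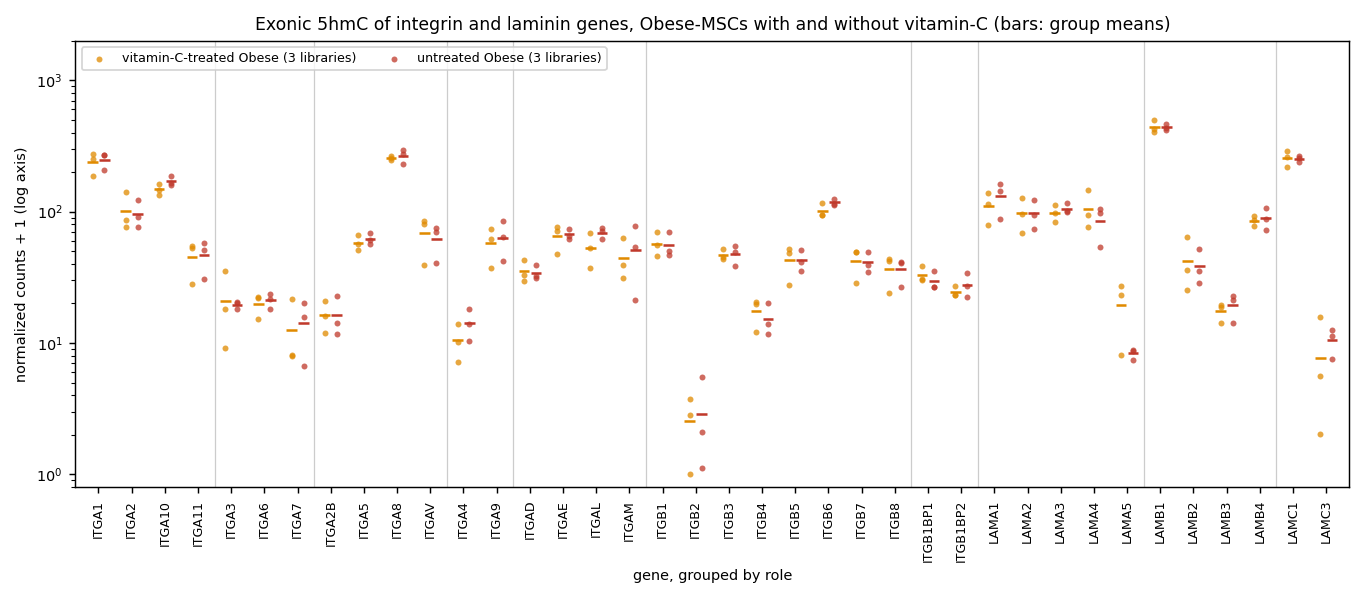
Normalized 5hmC counts + 1 (log axis) of 38 integrin and laminin genes in the second table, grouped by role, where each point is 1 of the 3 vitamin-C-treated or 3 untreated Obese libraries and each bar is a group mean. In LAMA5 the treated libraries split into 7.06 against 22.3 and 26.2, with the untreated libraries between 6.46 and 7.79.

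The genes that separated Obese from Lean libraries can be set beside their values under vitamin-C, bearing in mind that both comparisons use the same untreated libraries, so a low or high value there moves both ratios in opposite ways. ITGA8 had a log2 ratio of 0.37 against Lean, and treated cells read 247, 254 and 265 against 229, 275 and 295 in untreated cells (log2 ratio −0.06). ITGA2B had 0.84 against Lean, and read 15.1, 11.02 and 19.8 against 21.8, 10.8 and 13.1 (log2 ratio 0.00, its sign changing with the scaling). ITGA3 had 0.52, and read 17.1, 8.14 and 34.4 against 19.0, 17.2 and 19.4 (log2 ratio 0.10), where the treated libraries scattered about the tight untreated ones. ITGB7 had 0.29, and its treated mean gave a log2 ratio of 0.05. Of the genes lower in Obese-MSCs, ITGB6 had −0.38 and read 116, 93.5 and 93.0 in treated against 112, 123 and 114 in untreated cells (log2 ratio −0.21). ITGB8 had −0.43, and read 42.2, 23.0 and 41.3 against 25.7, 40.7 and 39.9 (log2 ratio 0.00, its sign changing with the scaling). LAMA5 had −0.35 against Lean and 1.33 under vitamin-C. ITGA1, the other gene with an unadjusted p under 0.05 in the first comparison, read 248, 275 and 185 against 270, 268 and 206 (log2 ratio −0.07).

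**Figure D4:**
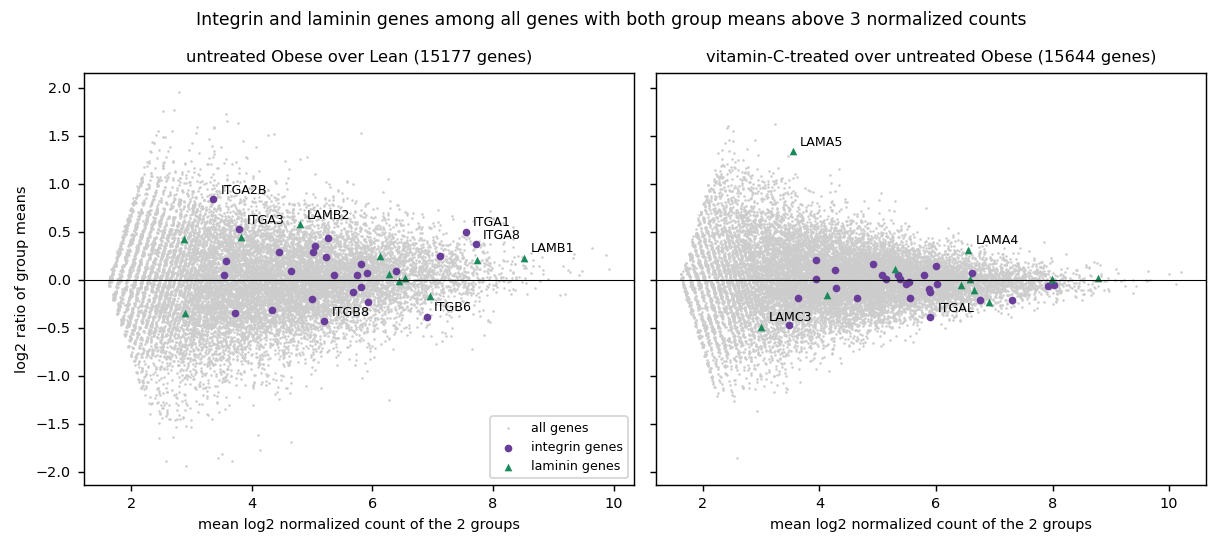
Log2 ratio of group means (vertical axis) against the mean log2 normalized count of both groups (horizontal axis) for all genes with both means above 3 (grey), with integrin genes as purple points and laminin genes as green triangles. The ratios of integrin and laminin genes lie within the cloud of all genes, and LAMA5 at 1.33 in the vitamin-C panel, rank 12 of 15644, stands at its upper rim.

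The scatter within groups is described by the coefficient of variation, the SD as a share of the mean. Its median over 38 integrin and laminin genes was 19.95% in Obese-MSCs and 18.4% in Lean-MSCs, beside 25.8% and 23.9% over all genes with both means above 3. In the second table it was 28.0% in treated and 19.5% in untreated cells, beside 28.0% and 25.4%. Of the 39 genes in the first table, 33 were in the upper 50% of genes by mean level. Within that upper 50%, 6 of 33 integrin and laminin genes separated Obese from Lean libraries, against 12.3% of all genes.

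The genes that act with integrins and laminins were taken from lists of known partners. Among 25 adaptor and signalling genes, 2 met the study's criteria as high in Obese-MSCs and none as low (2.07% of all genes were high). BCAR1, the p130Cas scaffold of focal adhesions, read 31.8, 31.3 and 36.4 in Obese-MSCs against 16.0, 16.9 and 26.6 in Lean-MSCs, a log2 ratio of 0.74 (limma adjusted p = 0.679). KANK2, which binds talin at the rim of adhesions, read 109, 121 and 105 against 64.6, 82.4 and 70.9, a log2 ratio of 0.62 (limma adjusted p = 0.668). Neither passed the adjusted limma threshold. FERMT3, the kindlin of blood cells, was higher without overlap but did not meet the criteria, with 12.02, 5.64 and 6.03 against 2.31, 4.97 and 2.07, a ratio of 2.53 on a Lean mean of 3.12. With BCAR1 and KANK2 it made 3 of the 25 without overlap, all higher, against 11.8% of all genes in either direction. PARVG, a parvin of blood cells, was lower without overlap under vitamin-C, with 3.03, 8.38 and 8.11 against 8.57, 9.66 and 11.5 (log2 ratio −0.61). It was the only gene of the list without overlap there, against 5.91% of all genes. Under vitamin-C no gene of this list met the criteria: BCAR1 read 24.2, 33.3 and 45.0 against 35.4, 35.4 and 40.0, and KANK2 read 105, 116 and 139 against 121, 137 and 115.

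The median log2 ratio of the adaptor list was 0.23 in Obese-MSCs against Lean-MSCs, with 18 of 24 genes above a ratio of 1, beside 50.8% of all genes. The share above 1 was 71.4% for basement membrane partners, 68.8% for other ligands and 75% for markers of other cells. That of the integrin and laminin genes was 71.1%, so the tilt is not particular to adaptors. Among 22 basement membrane partners and other laminin receptors, such as nidogens, collagen IV chains and syndecans, 0 met the criteria in either comparison, with medians of 0.10 and 0.12. The libraries did not overlap at 1 of the 22 genes in each comparison, against 11.8% and 5.91% of all genes. In the first this was COL18A1, where the Lean mean was under 3, and in the second NID1, the laminin-binding nidogen (log2 ratio 0.19). Among 19 of 21 listed other integrin ligands, 0 met the criteria in either comparison, with medians of 0.10 and 0.00. FN1, which encodes fibronectin, the ligand of the alpha 5 receptor, read 1156, 941 and 998 in Obese-MSCs against 805, 870 and 908 in Lean-MSCs, without overlap and with a log2 ratio of 0.26. FN1 was the only one of these 19 ligands without overlap there. Of the cell type markers, ENG, an MSC surface marker, and CSPG4, a mural cell marker, were likewise higher in Obese-MSCs without overlap, with log2 ratios of 0.50 and 1.73 (limma adjusted p = 0.743 and 0.617). CD14 was also higher without overlap, with its Obese mean under 3. The other mural marker, RGS5, overlapped (log2 ratio 0.05), as did NT5E, THY1 and CD44. CDH5, an endothelial marker, was lower in treated cells without overlap (log2 ratio −0.31), while PECAM1, also endothelial, overlapped there (log2 ratio −0.35). The part of these markers in the results for integrin and laminin genes was not tested.

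The 39 genes lie on 13 chromosomes, 6 of them on chromosome 9, and several are neighbours. ITGA1 and ITGA2 are 26.3 kb apart on chromosome 16, LAMB1 and LAMB4 30.6 kb apart on chromosome 9, and ITGAD, ITGAM and ITGAL lie within 1 Mb on chromosome 3. Side by side in Obese-MSCs against Lean-MSCs, ITGA1 had a log2 ratio of 0.50 and ITGA2 of 0.09, and LAMB1 of 0.23 and LAMB4 of 0.06. The differences within these pairs were not tested. In RefSeq 14 of the 39 overlap another annotated gene, among them PELO within ITGA1, MOCS2 at ITGA2, GSG2 at ITGAE and ASAP2 at ITGB1BP1, and a pseudogene at ITGB2. hMeDIP reads carry no transcript strand, so signal over shared exons cannot be assigned to either gene.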

How the data were processed

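The hMeDIP-seq libraries, 3 in each of 3 groups, were grouped by the submitters' labels. The authors captured 5hmC-bearing DNA with an antibody, aligned paired reads with Bowtie2 2.3.3.1 to the pig assembly susScr 11.1, removed duplicates with Picard 1.67, counted reads over exons with HTSeq 0.9.1 and normalized them with edgeR 3.28.1. The deposited signal values are fractional normalized counts, so no count model was fitted. Depth in reads per library is unknown from these values, and normalization to a common scale hides any global change in 5hmC. Numerical residue under 1e-09 was set to 0 (645 values of the second table). Lean and Obese libraries came from separate pigs, while the origin of treated libraries is not given per animal.

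The study's criteria (unadjusted p of 0.05 or less in an equal-variance test per gene, with a ratio limit of 1.4 or 0.7) and limma 3.58.1 in R 4.3.3 were applied here to each whole table of deposited values, so all calls and background shares are recomputed and not the authors' own. limma took log2(value + 1), a mean trend of the variance and the upper 80% of genes by mean, with Benjamini-Hochberg adjustment over those genes. The pseudocount of 1 understates the change of low genes. Log2 ratios in the text are of group means with no pseudocount, and the single-gene p is from a two-sided exact permutation test, where 20 arrangements give at smallest 0.1. Both tests were checked on simulated data. Gene positions come from RefSeq (Sscrofa11.1), where all 39 symbols matched. Figures were drawn with matplotlib 3.10.9.

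The members, the lists of partners and the tests were chosen with earlier results of these data known. Genes named with all library values in a comparison are those past either unadjusted threshold, the highest and lowest log2 ratio in each role group and comparison, and ITGB1, ITGA5, ITGAV, ITGA6, LAMA4, LAMB1 and LAMC1. ITGA11, ITGAE, ITGB2, ITGB3, ITGB7, LAMA2, LAMA3, FN1, FERMT3, PARVG, NID1, COL18A1, ENG, CSPG4, CDH5 and CD14 were named after their values were seen. The values of 1 gene are not reported here, though it is in the counts and medians. Alternatives were other pseudocounts, filters, p and ratio limits, unequal variances, a log-scale test, no trend, size factors, quantile normalization, chains only, leaving out each library and a replicate block over matched treated and untreated libraries.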

Additional observations from a re-analysis of the deposited data

How the results depend on the processing

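With a ratio limit of 1.2 in place of 1.4, 3 integrin or laminin genes met the study's criteria in Obese-MSCs against Lean-MSCs: ITGA8 as high, and ITGB6 and LAMA5 as low, against 1104 of all genes. Leaving out single libraries, the count ran from 0 to 1 there (LAMA4 without Obese replicate 2, ITGA1 without Obese replicate 3, ITGA3 without Lean replicate 9) and from 0 to 1 under vitamin-C (LAMA5 without treated replicate 4, ITGAL without treated replicate 6). Shares of all genes called in these settings are not given here, so these single calls are not read as results about the genes. limma called 0 integrin or laminin genes under every alternative run, with a smallest adjusted p of 0.635 to 0.965 in the first comparison and of 0.9996 to 1 in the second. The median log2 ratio with a library left out was 0.07 to 0.14 and −0.07 to −0.01. LAMB1 moved to 0.12 under quantile normalization and LAMC3 under vitamin-C to −1.76 without treated replicate 6. The labels share no replicate numbers between the groups and so give no pairing. A replicate block was fitted for each of the 6 ways to match treated with untreated libraries, added after seeing the data, and called 0 genes (smallest adjusted p 0.9997 to 1). With treated replicates 4, 5 and 6 matched to untreated replicates 1, 2 and 3, an unadjusted p of 0.05 or less was reached by 2 genes, ITGAL and LAMA5, in place of LAMA5 alone. The share of all genes reaching it in that fit was not computed, so the change is not read as a result about these genes. The median half-width of the unadjusted 95% limma interval was 0.54 (Obese against Lean) and 0.61 (vitamin-C) on the log2 scale, and rests on 3 libraries a group.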

Other observations

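Some treated and untreated Obese libraries deviated from their group means alike, although the labels do not pair them. Over 9496 genes the deviations of treated replicate 4 and untreated replicate 1 had a Pearson r of 0.394, those of 5 and 2 of 0.53 and those of 6 and 3 of 0.276, while the other 6 combinations lay between −0.304 and −0.0977. Over 34 integrin and laminin genes the r of those same 3 combinations was 0.269, 0.441 and 0.337. Deviations within a group sum to 0 at each gene, so the r of different combinations are tied to each other. They are across genes, which are not independent replicates, and are given as a description. In those 3 combinations, chosen after their values were seen, ITGAL and LAMA1 were lower in the treated than in the untreated library each time (36.2 and 61.2, 51.8 and 74.0, and 68.3 and 69.9 for ITGAL, and 139 and 160, 113 and 141.5, and 78.5 and 87.5 for LAMA1). ITGA5, ITGA9 and LAMA3 were also lower each time, and ITGB1BP1 was higher each time. The share of all genes with the same sign in all 3 combinations was not computed, so these genes are not set apart by it.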
